A study of Mus musculus with 6 samples.

Results

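The genes of the hypoxia-inducible factor (HIF) pathway were examined in liver RNA-seq libraries of acute ethanol-exposed and control mice. The set comprised 9 genes chosen by symbol, namely the HIF alpha subunits Hif1a, Epas1 and Hif3a, the prolyl hydroxylases Egln1 and Egln3, and the HIF-responsive genes Vegfa, Adm, Ndrg1 and Ankrd37. All 9 symbols were found once among the 28880 genes of the deposited table. Livers came from wild type male C57BL/6J mice of 6 to 8 weeks, with 3 ethanol-exposed mice and 3 control mice, and 1 library per mouse. The ethanol group was fasted for 12 h, received 50% ethanol by mouth once at 6 g/kg, and was sampled 24 h later. Control mice received no ethanol, and whether they were fasted is not given in the labels, so fasting and ethanol cannot be told apart here. All 6 libraries carry the same batch label.

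HIF is a transcription factor made of an oxygen-regulated alpha subunit and a stable partner, ARNT. When oxygen is present, EGLN prolyl hydroxylases mark the alpha subunit, which the VHL ubiquitin ligase then removes, so alpha subunits are controlled largely at the protein level, which RNA-seq does not measure. When oxygen falls, the alpha subunit persists and raises genes for blood vessel growth, glycolysis and mitochondrial turnover. In the liver, oxygen declines from the portal to the central end of the lobule, and ethanol metabolism consumes oxygen.

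Between 60514417 and 74210869 reads were counted on genes per library. Enough counts for a comparison were present in 16717 genes, and the groups were compared by the quasi-likelihood test of edgeR (two-sided), with p-values adjusted by the Benjamini-Hochberg method across all of them. Genes with a log2 fold change beyond 1 and an adjusted p below 0.05 are called DEGs. Levels are given as CPM, counts scaled to the library size after TMM normalization, and levels of different genes are compared as FPKM, which is also scaled to transcript length. TMM factors were 0.768 to 0.836 in ethanol-exposed and 1.26 to 1.27 in control libraries, so a gene can be higher in CPM and lower in FPKM. Scaling by library size alone moved the median of all log2 fold changes from -0.04 to -0.71, a shift that all genes share, with 5.06% of genes then DEGs as higher and 32.2% as lower. Under that scaling the share of all genes at an adjusted p under 0.05 alone was not counted. Counts at that cutoff below therefore have no background beside them. Ethanol replicate 3 stood apart from the other ethanol libraries, with a correlation of log2 CPM across genes of 0.943 and 0.949 to them, against 0.968 between replicates 1 and 2 and 0.976 to 0.981 between control libraries. The summed CPM of 7 neutrophil markers was 15.9 in ethanol replicate 3, 3.27 and 4.09 in the other ethanol libraries and 1.15 to 1.57 in controls, and 2 of these markers (Ly6g and Mmp8) had no count in any control library. Erythroid markers summed to 579 to 863 CPM in ethanol-exposed mice and 180 to 220 CPM in controls.

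Of the 9 genes, 8 had enough counts for the test, and Hif3a did not. Epas1 and Adm rose as DEGs, Hif1a and Egln1 rose with a log2 fold change under the DEG threshold, and Egln3, Vegfa, Ndrg1 and Ankrd37 did not pass. Thus 4 of 8 passed at an adjusted p under 0.05, all higher, where 43.0% of all genes tested passed in either direction and 21.5% passed as higher. The groups did not overlap in CPM for these 4 genes, all higher with ethanol, where 59.0% of all genes tested did not overlap, 28.0% being higher and 31.0% lower. As DEGs, 2 of 8 were called where 24.2% of all genes were, 10.4% as higher and 13.8% as lower. With TMM and all libraries, none of the 8 was called lower by edgeR, also at an unadjusted p under 0.05. DESeq2 on all libraries called none lower either. The share of DEGs is near the background, and the 8 genes had a median log2 fold change of 0.38. By library size alone, 2 of the 8 were higher and 2 lower at an adjusted p under 0.05 (edgeR), with a median of -0.28 where all genes had -0.71.

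**Figure D1:**
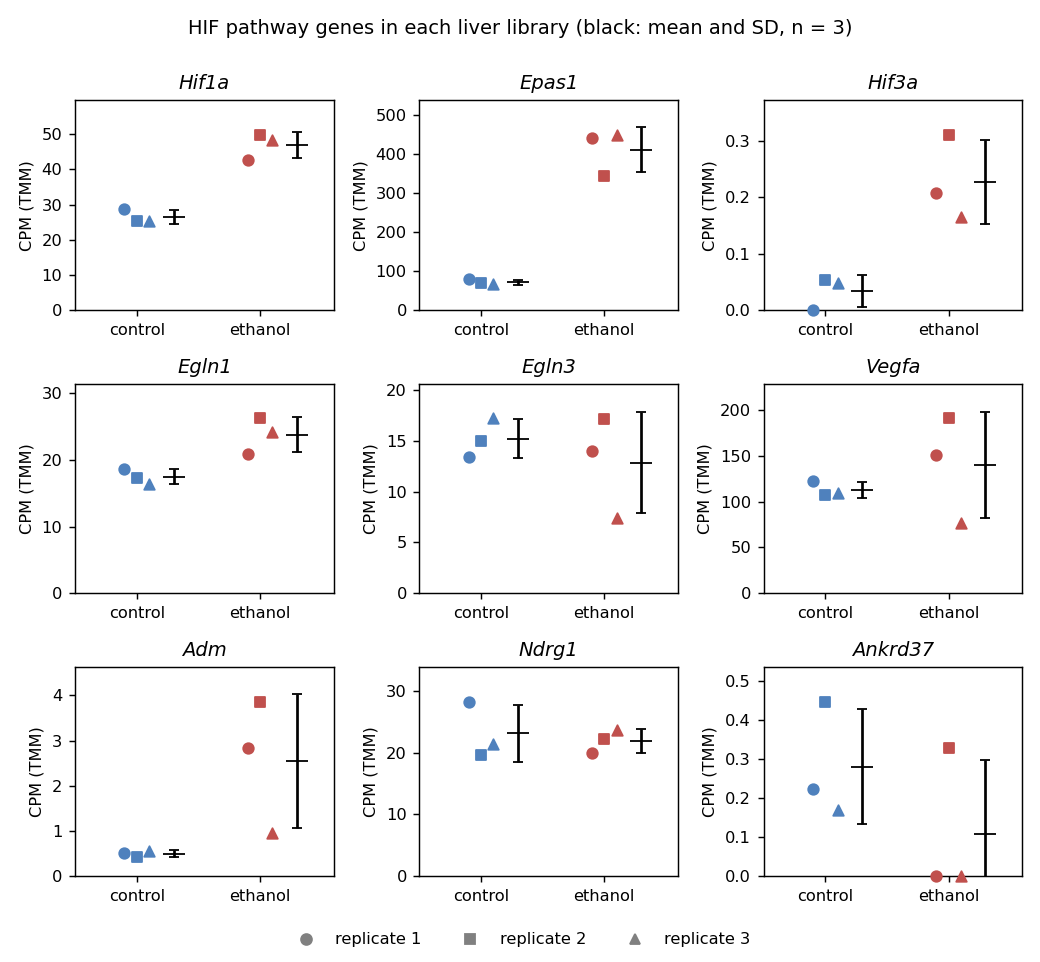
CPM of each of the 9 genes (vertical axes, each starting at 0) in the 3 control and 3 ethanol libraries, with the symbol giving the replicate number and the black bar the mean and SD, cut at 0 for Ankrd37. Epas1 lay at 345 to 449 CPM in ethanol-exposed mice and 66.8 to 79.1 in controls, while Egln3, Vegfa and Adm were lowest among ethanol libraries in replicate 3.

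Among the alpha subunits, Epas1 (ENSMUSG00000024140, chromosome 17, 87061128 to 87140838, plus strand, in the deposited table's coordinates) was the DEG. It encodes HIF2 alpha, the form abundant in endothelial cells and also active in hepatocytes. Epas1 was at 442, 345 and 449 CPM in ethanol replicates 1, 2 and 3, and at 79.1, 68.6 and 66.8 CPM in control replicates 1, 2 and 3. Every ethanol-exposed mouse lay above every control mouse, with means of 412 ± 58.4 and 71.5 ± 6.65 CPM (SD, n = 3 per group), a ratio of 5.76. The log2 fold change was 2.53 (standard error 0.15, 95% interval 2.18 to 2.87, adjusted p = 8.47e-05, edgeR). In FPKM, where the TMM factors play no part, the means were 54.4 ± 5.40 and 15.1 ± 1.45 (SD, n = 3 per group), a ratio of 3.60. The annotated gene Gm50008 overlaps Epas1 on the same strand, with 4 to 126 counts under ethanol and 0 in controls, against 21082 to 25430 counts of Epas1 itself under ethanol.

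Because whole-liver RNA was used, a change in the number of cells of a type and a change in RNA per cell cannot be told apart. Markers of sinusoidal endothelial cells, which line the liver's capillaries, summed to 170 to 251 CPM in ethanol-exposed and 225 to 248 CPM in control mice. Of these 12 markers, 2 were DEGs as higher and 5 as lower, where 10.4% and 13.8% of all genes were. None of the markers was at 0 in either group. Their median log2 fold change was -0.62. By library size alone it was -1.28 where all genes had -0.71, with 2 markers higher and 9 lower at an adjusted p under 0.05. The sums include Lyve1, which rose as a DEG from 3.51 ± 0.146 to 42.2 ± 23.8 CPM (SD, n = 3 per group). Markers of hepatocytes summed to 147821 to 155809 CPM in ethanol-exposed and 76845 to 89344 CPM in control mice, with 9 of 11 higher at an adjusted p under 0.05 where 21.5% of all genes were, and none at 0 in either group. Most of this sum was Alb, at 93788 ± 1008 CPM in ethanol-exposed and 53081 ± 5745 CPM in control mice (SD, n = 3 per group). Of the 11, 4 were DEGs as higher (Apoa1, Fgb, Pck1 and Cyp2e1), where 10.4% of all genes were. The rise of the hepatocyte markers depended on the scaling. By library size alone 3 of the 11 were higher and 1 lower, with a median log2 fold change of 0.031 where all genes had -0.71. The part of either cell type in the level of Epas1 was not tested.

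Hif1a (ENSMUSG00000021109, chromosome 12, 73948149 to 73994304, plus strand), the alpha subunit found in nearly all cell types, was at 42.6, 49.8 and 48.5 CPM in ethanol replicates 1, 2 and 3. In control replicates 1, 2 and 3 it was at 28.8, 25.4 and 25.2 CPM. The groups did not overlap, and the log2 fold change was 0.83 (standard error 0.11, 95% interval 0.56 to 1.09, adjusted p = 0.00150, edgeR). This rise depended on the scaling. By library size alone it was 0.16 (adjusted p = 0.310), and limma on log2(FPKM + 1) gave 0.13 (adjusted p = 0.326). Relative to the median of all genes tested, Hif1a was higher by 0.87 under TMM and by 0.87 with library size alone. A change between these scalings moves all genes together, so this difference is nearly fixed and does not test the rise.

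The balance between these alpha subunits can be read within each library, where scaling between libraries cancels. The ratio of Epas1 to Hif1a FPKM was 10.9, 7.31 and 9.78 in ethanol replicates 1, 2 and 3. In control replicates 1, 2 and 3 it was 2.90, 2.85 and 2.80. All ethanol ratios were above all control ratios, with means of 9.34 ± 1.85 and 2.85 ± 0.0529 (SD, n = 3 per group) and a two-sided exact permutation p of 0.1, the smallest that 3 against 3 can give.

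Hif3a (ENSMUSG00000004328, chromosome 7, 16765432 to 16796352, minus strand), whose product can oppose the other alpha subunits, was close to the detection limit. It had 12, 19 and 9 counts in ethanol replicates 1, 2 and 3 and 0, 4 and 4 counts in control replicates 1, 2 and 3, totals of 40 and 8. All ethanol libraries were above all control libraries. With no filter on low counts, which admits the gene to the test, its log2 fold change was 2.70 (adjusted p = 0.145, edgeR) and did not pass.

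Egln1 (ENSMUSG00000031987, chromosome 8, 125635326 to 125676063, minus strand) encodes PHD2, the main oxygen-sensing hydroxylase of HIF alpha subunits. Its levels were 20.9, 26.2 and 24.2 CPM in ethanol replicates 1, 2 and 3. They were 18.7, 17.3 and 16.4 CPM in control replicates 1, 2 and 3, below every ethanol library. The log2 fold change was 0.45 (95% interval 0.15 to 0.74, adjusted p = 0.0243, edgeR). The direction flipped with library size alone, at -0.22 (adjusted p = 0.228). Relative to the median of all genes Egln1 was higher by 0.49 under both scalings, which follows from the shift that all genes share. The call was also lost without control replicate 1 (adjusted p = 0.0510), control replicate 2 (0.0879), control replicate 3 (0.103) or ethanol replicate 2 (0.0604).

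Egln3 (ENSMUSG00000035105, chromosome 12, 54225767 to 54250646, minus strand), the hydroxylase PHD3, is itself a HIF-induced gene. It was at 14.0, 17.1 and 7.38 CPM in ethanol replicates 1, 2 and 3. In control replicates 1, 2 and 3 it was at 13.4, 15.0 and 17.2 CPM. Ethanol replicates 1 and 2 lay within the control range and replicate 3 lay below it. The log2 fold change was -0.24 (95% interval -0.93 to 0.44, adjusted p = 0.524, edgeR), and without ethanol replicate 3 it was 0.044 (adjusted p = 0.821). Egln3 was lower with library size alone, at -0.90 (adjusted p = 0.0422). The ratio of Egln1 to Egln3 FPKM was 1.11, 1.13 and 2.43 in ethanol replicates 1, 2 and 3, and 1.03, 0.851 and 0.706 in control replicates 1, 2 and 3. All ethanol ratios were above all control ratios, although ethanol replicates 1 and 2 came close to control replicate 1.

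Vegfa (ENSMUSG00000023951, chromosome 17, 46327919 to 46343295, minus strand), the vascular endothelial growth factor and a classical HIF target, had the highest FPKM of the 9 genes in control liver. Its levels were 151, 191 and 76.8 CPM in ethanol replicates 1, 2 and 3. They were 123, 107 and 109 CPM in control replicates 1, 2 and 3. Ethanol replicates 1 and 2 were above all controls and replicate 3 was below all of them. The log2 fold change over all libraries was 0.31 (95% interval -0.39 to 1.00, adjusted p = 0.436, edgeR). Without ethanol replicate 3 it was 0.61 and passed (adjusted p = 0.00321), and without ethanol replicate 2 it was 0.016 (adjusted p = 0.968). The direction flipped to -0.35 with library size alone (adjusted p = 0.386). Relative to the median of all genes Vegfa was at 0.35 under TMM and 0.36 with library size alone, values that the shared shift keeps alike. The SD of log2 CPM among ethanol-exposed mice, 0.68, was larger than that of 81.4% of the genes tested.

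Adm (ENSMUSG00000030790, chromosome 7, 110226868 to 110229027, plus strand) encodes adrenomedullin, a vasodilator peptide. It had 163, 236 and 52 counts in ethanol replicates 1, 2 and 3, and 49, 32 and 47 counts in control replicates 1, 2 and 3. These correspond to 2.83, 3.86 and 0.953 CPM in the ethanol libraries and to 0.522, 0.420 and 0.571 CPM in the controls. The groups did not overlap in CPM, but ethanol replicate 3 stood much closer to the controls than to the other ethanol libraries, and in FPKM its 0.408 fell within the control range of 0.287 to 0.414. The log2 fold change was 2.33 (standard error 0.52, 95% interval 1.12 to 3.55, adjusted p = 0.0102, edgeR). It was 2.74 without ethanol replicate 3 (adjusted p = 0.000206), 1.69 with library size alone (adjusted p = 0.0291) and 0.62 in limma on log2(FPKM + 1) (adjusted p = 0.0595). The promoter of Adm is shown because Adm is the DEG of the set for which RefSeq gave a promoter window. It covers 300 bases of RefSeq's GRCm38.p6, chr7:110627407-110627706, plus strand, from 250 bases before to 50 after the gene's start, with matches to the core of the hypoxia response element in capitals.

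Adm: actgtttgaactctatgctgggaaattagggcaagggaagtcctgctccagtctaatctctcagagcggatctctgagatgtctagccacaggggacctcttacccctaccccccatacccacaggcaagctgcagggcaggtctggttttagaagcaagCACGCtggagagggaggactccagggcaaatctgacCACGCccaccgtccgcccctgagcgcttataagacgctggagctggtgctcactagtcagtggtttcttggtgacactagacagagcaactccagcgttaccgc

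The core was searched as ACGTG or GCGTG on both strands, so that CACGT and CACGC on the printed strand also count, and a CACGTG palindrome counts once per strand. A window was available for 7 of the 9 genes, with 2 windows for Vegfa. At least 1 match lay in a window of each of the 7, in 7 of the 8 windows. Of all 32851 promoter windows of this length, 43.8% held a match. The window without a match was that of Vegfa at chr17:46032328-46032627. On the gene's minus strand it lies upstream of Vegfa's other window, chr17:46025114-46025413, which held 2 matches. These matches thus lie downstream of the gene start that the upstream window covers, not in front of it. The form ACGTG alone was found in 19.6% of all windows. Adm held 2 matches, both of the GCGTG form. The following sites, chosen after the search and 25 bases long with the match in capitals, show the ACGTG form in other genes of the set, printed on the gene's strand.

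Hif1a at chr12:73907787-73907811: gctgagagcaACGTGggctggggtg
Egln1 at chr8:124949308-124949332: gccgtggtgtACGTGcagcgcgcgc
Egln3 at chr12:54204089-54204113: tgcatctcagACGTGagatccaggt
Vegfa (other window) at chr17:46025360-46025384: agtgcgtgccCACGTcagagagcaa
Ankrd37 at chr8:45999842-45999866: gtgtttgggtACGTGaggccgcagc

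A match describes the letters of the window and does not mark a bound site. Genes with the ACGTG form included Hif1a and Egln1, which rose, and Egln3, Vegfa (in its downstream window only) and Ankrd37, which did not pass the test.

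Ndrg1 (ENSMUSG00000005125, chromosome 15, 66801167 to 66841489, minus strand) is a stress-responsive gene raised by hypoxia in many cell types. It was at 19.9, 22.1 and 23.6 CPM in ethanol replicates 1, 2 and 3. In control replicates 1, 2 and 3 it was at 28.2, 19.6 and 21.4 CPM. The ethanol libraries lay within the control range, and the log2 fold change was -0.08 (95% interval -0.45 to 0.30, adjusted p = 0.715, edgeR). The sign changed without control replicate 1, to 0.089 (adjusted p = 0.645). Ndrg1 was lower with library size alone, at -0.75 (adjusted p = 0.00721), close to the median of all genes under that scaling.

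Ankrd37 (ENSMUSG00000050914, chromosome 8, 46449939 to 46452904, minus strand), an ankyrin repeat gene known as a HIF target, was barely detected. It had 0, 20 and 0 counts in ethanol replicates 1, 2 and 3 and 21, 34 and 14 counts in control replicates 1, 2 and 3. Ethanol replicates 1 and 3 lay below all controls and replicate 2 lay within their range. The log2 fold change of -1.32 had a 95% interval from -4.55 to 1.91 (adjusted p = 0.466, edgeR). Without ethanol replicate 2 the gene passed (adjusted p = 0.0206), and the remaining ethanol libraries, both at 0, were at least 5.23-fold lower than the control mean when taken at a limit of 3 counts per library. Ufsp2 overlaps Ankrd37 and is read from the other strand, with 1359 to 1668 counts under ethanol and 2560 to 2872 in controls. Whether reads were counted by strand is not known from the sources used here.

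**Figure D2:**
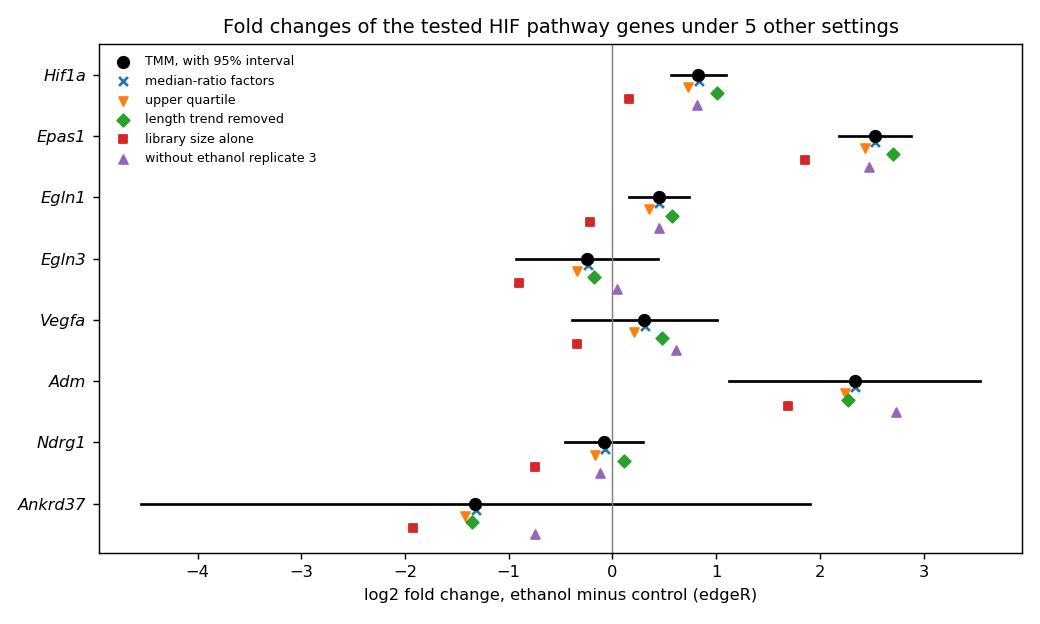
Log2 fold change (horizontal axis, ethanol minus control) of the 8 tested genes in edgeR's test, with the TMM estimate and its 95% interval in black and 5 other settings as coloured symbols. Epas1 and Adm stayed above 0 in all of these, Hif1a fell to 0.16 with library size alone, and Egln1 and Vegfa turned to -0.22 and -0.35 there.

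Per transcript length, the order of the genes changed between the groups. In control mice Vegfa came first at 31.1 ± 2.44 FPKM, followed by Epas1 at 15.1 ± 1.45, Egln3 at 6.75 ± 0.826, Egln1 at 5.73 ± 0.392, Hif1a at 5.29 ± 0.417 and Ndrg1 at 4.12 ± 0.823 (SD, n = 3 for each). From Egln3 to Ndrg1, each gene differed from the next in this order by less than the sum of their SDs. Adm at 0.360 FPKM, Ankrd37 at 0.201 and Hif3a at 0.00527 followed far below. In ethanol-exposed mice Epas1 came first, at 54.4 ± 5.40 FPKM against 24.4 ± 11.0 for Vegfa (SD, n = 3 for each), and Epas1 exceeded Vegfa in each of these libraries. Hif1a, at 5.90 ± 0.672 FPKM, overlapped Egln1, at 4.91 ± 0.737, which overlapped Egln3, at 3.61 ± 1.53 (SD, n = 3 for each). Within each ethanol library, however, Hif1a was above Egln1 and Egln1 above Egln3, while in each control library Hif1a was below Egln1.

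The genes most like Epas1, the DEG with the largest change, were H2-K1, Asl, Samm50, Fetub and Rac1, with Pearson correlations of log2 CPM over the 6 libraries of 0.99996, 0.99981, 0.99971, 0.99924 and 0.99917. In all, 1674 genes had a correlation above 0.95, and the points share the group difference.

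Of a further 79 genes of the pathway, listed in 7 lists, 78 were found in the deposited table (all but Adm2), and 70 of these had enough counts for the test in the same fit. Of these, 16 were DEGs as higher and 4 as lower, with a median log2 fold change of 0.38. Of all genes tested, 24.2% were DEGs, 10.4% as higher and 13.8% as lower. Scaled by library size alone, 9 of the 70 were higher and 12 lower, where 5.06% of all genes were DEGs as higher and 32.2% as lower.

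**Figure D3:**
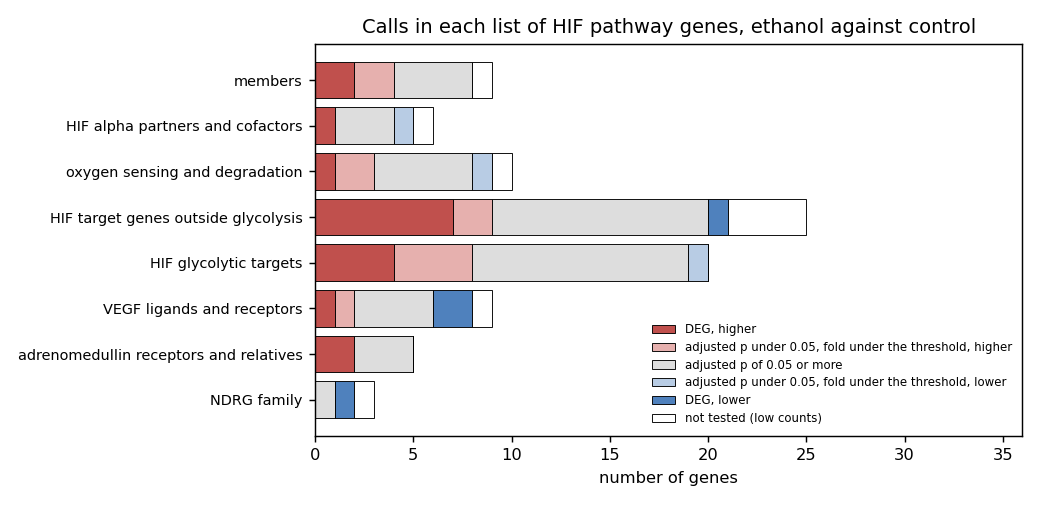
Number of genes (horizontal axis) in the set of 9 and in each of the 7 further lists by their call in edgeR's test. With TMM, most calls of the HIF target lists were higher. Outside glycolysis 7 DEGs were higher and 1 lower, and in glycolysis 4 were higher and 0 lower. By library size alone, most genes of both lists that passed at an adjusted p under 0.05 were lower, under a scaling that put the median of all genes at -0.71.

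Among partners and cofactors of the alpha subunits, 1 of 5 genes tested was a DEG, as higher, where 10.4% of all genes were. This was Arnt, the obligate partner, at 76.1, 90.5 and 49.9 CPM in ethanol replicates 1, 2 and 3 and 27.2, 27.1 and 23.2 CPM in control replicates 1, 2 and 3, a log2 fold change of 1.48 (adjusted p = 0.00201, edgeR). All ethanol libraries were above all controls, but by library size alone Arnt had 0.83 (adjusted p = 0.0204) and was not a DEG. Crebbp, a histone acetyltransferase recruited by HIF, fell by 0.69 on the log2 scale (adjusted p = 0.00589), and Cited4, a factor that competes with HIF for that cofactor, had 1.66 (adjusted p = 0.168). Among genes of oxygen sensing and HIF degradation, 1 of 9 was a DEG, as higher, against the same 10.4%. This was Egln2, the hydroxylase PHD1. It was at 76.9 ± 1.72 CPM in ethanol-exposed and 36.5 ± 1.56 CPM in control mice (SD, n = 3 per group), a log2 fold change of 1.08 (adjusted p = 0.000263). Egln2 was under the DEG threshold with upper quartile scaling, at 0.98, and with library size alone, at 0.41 (adjusted p = 0.00977). By library size alone the list held 0 DEGs as higher and 3 as lower, where 5.06% and 32.2% of all genes were. Elob, a subunit of the VHL ligase, had 0.55 (adjusted p = 0.00719), which turned to -0.12 with library size alone, and its scaffold Cul2 fell by 0.82 (adjusted p = 0.00291). Vhl itself had -0.36 (adjusted p = 0.319), or -0.64 without ethanol replicate 3 (adjusted p = 0.0369).

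HIF target genes outside glycolysis held 7 DEGs as higher and 1 as lower among 21 tested, 38.1%, where 24.2% of all genes were DEGs (10.4% higher and 13.8% lower), with a median log2 fold change of 0.56. Ddit4, an inhibitor of mTORC1, was at 70.0, 44.4 and 173 CPM in ethanol replicates 1, 2 and 3 and at 10.1, 7.75 and 6.86 CPM in control replicates 1, 2 and 3, a log2 fold change of 3.54 (adjusted p = 0.00190, edgeR). All ethanol libraries were above all controls, and replicate 3 was the highest. Bnip3, a mitophagy receptor, rose by 2.83, from 54.9 ± 6.94 to 390 ± 46.1 CPM (SD, n = 3 per group, adjusted p = 7.33e-05). Further DEGs as higher were Angptl4 (1.75), Hmox1 (1.68), Higd1a (1.06) and Rora (1.04). Higd1a was under the DEG threshold without ethanol replicate 1, at 0.89. Rora was so without ethanol replicate 2, at 0.75, and did not pass without ethanol replicate 1 or any single control library (adjusted p of 0.0549 to 0.0686). By library size alone the list held 4 DEGs as higher and 2 as lower, where 5.06% and 32.2% of all genes were. At an adjusted p under 0.05 these were 5 and 7. Hmox1 was then at 1.00 (adjusted p = 0.0352), just under the threshold, while Higd1a (0.39, adjusted p = 0.0649) and Rora (0.39, adjusted p = 0.287) did not pass, and none of these 3 passed in limma on log2(FPKM + 1). P4ha1, a collagen prolyl hydroxylase, fell by 1.84 (adjusted p = 0.000366), from 14.1 ± 1.09 to 3.92 ± 0.629 CPM (SD, n = 3 per group). Ethanol replicate 3, the highest library for Ddit4 and Hmox1, was also that with the highest neutrophil marker sum, 15.9 CPM, whose part in these levels was not tested.

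Glycolytic targets held 4 DEGs as higher and 0 as lower among 20 tested, 20%, with a median log2 fold change of 0.38. Of all genes, 24.2% were DEGs, 10.4% as higher and 13.8% as lower. Pfkfb3, which makes an activator of glycolysis, rose by 3.01 on the log2 scale (adjusted p = 0.000215, edgeR). Slc2a1, a glucose transporter, was at 67.9, 88.4 and 16.2 CPM in ethanol replicates 1, 2 and 3 and at 9.18 to 10.2 CPM in controls, a log2 fold change of 2.57 (adjusted p = 0.00881). As with Adm, ethanol replicate 3 was the lowest of the ethanol libraries and above the controls in CPM, while its 3.31 FPKM fell within the control range of 3.08 to 3.43. Slc2a3 (2.49) and the lactate exporter Slc16a3 (1.55) were the other DEGs, both at low levels, and Slc16a3 did not pass without control replicate 1 (adjusted p = 0.0524) or control replicate 2 (0.0716). Ldha, lactate dehydrogenase A, rose by 0.99 (adjusted p = 0.0134), under the DEG threshold, while Pfkl, the liver phosphofructokinase, fell by 0.79 (adjusted p = 0.0260). Ldha did not pass without control replicate 1 (adjusted p = 0.0577) or 3 (0.0543), nor Pfkl without ethanol replicate 1 or any single control library (adjusted p of 0.0687 to 0.0800). Pfkl also did not pass with the length trend removed (-0.60, adjusted p = 0.0750). By library size alone the list held 3 DEGs as higher and 1 as lower, where 5.06% and 32.2% of all genes were. At an adjusted p under 0.05 these were 3 and 8. There Ldha had 0.31 (adjusted p = 0.258) and Slc16a3 0.88 (adjusted p = 0.105), neither of which passed, and Pfkl became a DEG at -1.44 (adjusted p = 0.00234). In limma on log2(FPKM + 1) Slc2a1, Slc16a3 and Ldha did not pass (adjusted p = 0.0600, 0.0937 and 0.303).

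**Figure D4:**
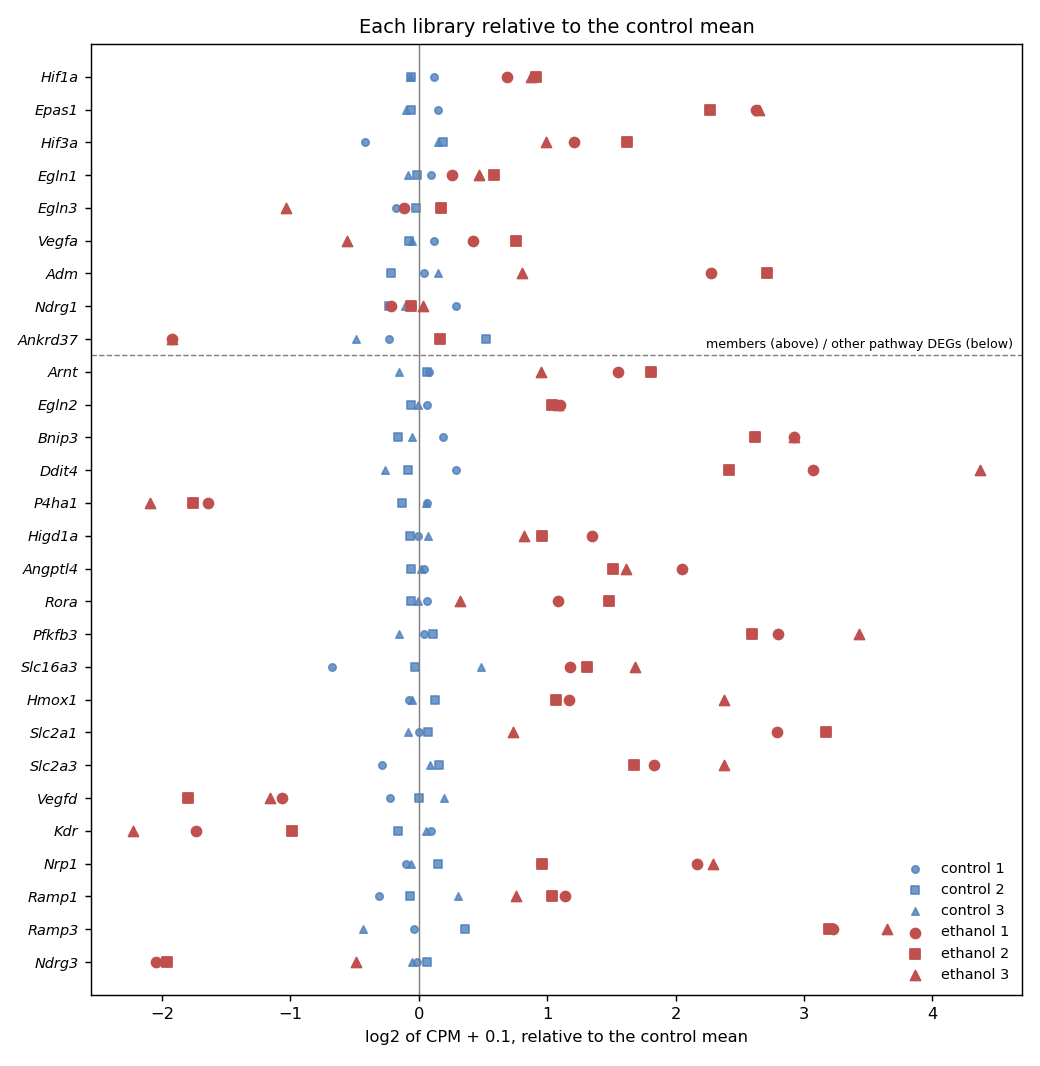
Log2 of CPM + 0.1 relative to the control mean (horizontal axis) in each control (blue) and ethanol (red) library, for the 9 genes above the dashed line and the DEGs of the further lists that the text names below it. Ethanol replicate 3 (red triangles) was the lowest ethanol library for Vegfa, Adm, Slc2a1 and Arnt, and the highest for Ddit4 and Pfkfb3.

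Ethanol replicate 3 had the lowest of the ethanol values in 3 of the 8 tested genes of the set, Egln3, Vegfa and Adm, and in 25 of the 70 further pathway genes, 35.7%. Over all genes tested it was the lowest in 39.1%. It was the highest in 34 of the 70, 48.6%, against 40.5% of all genes. The part of the neutrophil markers, also highest in this library, in the levels of Egln3, Vegfa and Adm was not tested.

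Receptors and relatives of the target peptides moved in both directions. Of VEGF ligands and receptors, 1 of 8 was a DEG as higher and 2 as lower, where 10.4% and 13.8% of all genes were. Nrp1, a VEGF co-receptor, was at 172, 74.4 and 187 CPM in ethanol replicates 1, 2 and 3 and at 35.6 to 42.2 CPM in controls, a log2 fold change of 1.92 (adjusted p = 0.00360, edgeR). Kdr, the main VEGF receptor and also one of the endothelial markers above, fell by 1.57 (adjusted p = 0.00598), from 18.4 ± 1.74 to 6.19 ± 2.75 CPM (SD, n = 3 per group). Vegfd, a lymphatic growth factor, fell by 1.54 (adjusted p = 0.0204), and did not pass without control replicate 2 (adjusted p = 0.0674) or 3 (0.0852). Of the adrenomedullin receptor genes, 2 of 5 were DEGs, both higher, where 10.4% of all genes were DEGs as higher. Ramp3, a subunit that directs the receptor to adrenomedullin, was at 1.77, 1.73 and 2.42 CPM in ethanol replicates 1, 2 and 3 and at 0.0486 to 0.157 CPM in controls, a log2 fold change of 4.28 (adjusted p = 0.000740). Ramp1 rose by 1.04 (adjusted p = 0.0183), but did not pass with library size alone (0.37, adjusted p = 0.283), in limma on log2(FPKM + 1) (adjusted p = 0.211), or without ethanol replicate 1, control replicate 1 or control replicate 2 (adjusted p of 0.0585 to 0.0698). Ramp2 was at 1.67, 2.52 and 34.4 CPM in ethanol replicates 1, 2 and 3 and at 3.61 to 4.30 CPM in controls. Ethanol replicates 1 and 2 lay below all controls and replicate 3 far above them, so its log2 fold change of 1.69 (adjusted p = 0.230) became -0.92 without ethanol replicate 3 (adjusted p = 0.0153). Calcrl, the receptor that these subunits accompany, had -0.75 (adjusted p = 0.171), or -1.30 without ethanol replicate 3 (adjusted p = 0.00432). In the NDRG family, Ndrg3 fell by 1.33 (adjusted p = 0.0371), a call that was kept without ethanol replicate 3. It was lost when each of the other libraries was left out (adjusted p between 0.0896 and 0.0989). The call was also lost with the length trend removed (0.0586) and with no filter on low counts (0.0524). Ndrg2, the family member abundant in liver, had -0.14 (adjusted p = 0.362), or -0.81 with library size alone (adjusted p = 0.00199).

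The annotation carried in the deposited table gave a wider view, looked up after the values of the 9 genes were seen. Of 106 genes annotated to KEGG's HIF-1 signaling pathway, 97 were tested, and 20 were DEGs as higher and 3 as lower. Their share in either direction, 23.7%, was close to the 24.2% of all genes tested. By direction, 10.4% of all genes were DEGs as higher and 13.8% as lower. Of 192 genes annotated to GO's response to hypoxia, 161 were tested, with 32 DEGs as higher and 16 as lower, 29.8%. By library size alone these numbers became 9 higher and 17 lower for the KEGG pathway and 15 higher and 42 lower for the GO term, against the same 5.06% and 32.2% of all genes.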

How the data were processed

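For each library the authors deposited raw counts of reads per gene and, next to them, FPKM values (scaled to the transcript's length and the library's size). Adaptors and poor reads had been removed before alignment. The aligner, the counter and the use of strand are not given in the sources used here. The processing notes name GRCm38, but the table's gene positions differ from GENCODE's GRCm38 annotation, so positions are given as the table has them. A further 1 column of counts, named for no library of the series, was not used.

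Counts were analysed in R 4.3.3 with edgeR 4.0.16 (filterByExpr, TMM, quasi-likelihood test, no covariates). Alternatives used DESeq2 1.42.0 and limma 3.58.1. Libraries were grouped by title. No library was a duplicate, since libraries of a group differed beyond sampling noise (chi-square over degrees of freedom between 54.8 and 535). On simulated counts for this comparison with 200 genes changed by a log2 fold change of 2, edgeR recovered 95% of them among 16768 genes, with 9 false calls. The simulation gave all genes the same spread, with changes in either direction. It held neither the difference in TMM factors between the groups nor an outlying library, so it does not speak to these. Limits of 3 counts cover counting error only. The 9 genes and the lists were chosen with earlier results of these data known. The rule named all 9, the DEGs of the lists, and in each list the 2 genes with the largest absolute log2 fold change, and 1 of these genes is counted but not reported here. Other list genes named with values (Crebbp, Elob, Vhl, Ldha, Pfkl, Calcrl) were chosen after their values were seen.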

Additional observations from a re-analysis of the deposited data

How the results depend on the processing

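Of the 128 log2 fold changes obtained for the 8 tested genes under 16 alternatives, 117 kept their direction and 11 did not. Egln1 and Vegfa gave 4 of the reversals each. The count does not separate a shift that all genes share, as with library size alone, from a change of the gene itself. Epas1 rose in all 16, from 1.78 to 2.70. With library size alone, Egln1 became -0.22 and Vegfa -0.35. In limma on log2(FPKM + 1) they became -0.19 and -0.44, with or without a filter on low values, and on log2(FPKM + 0.1) -0.23 and -0.46. Ndrg1 became 0.11 with the trend with transcript length removed. With each library left out, Ndrg1 ran from -0.18 to 0.089, the last without control replicate 1, and Egln3 from -0.51 to 0.044, the last without ethanol replicate 3. Library size alone lowered all genes together (median log2 fold change of -0.71). Relative to that median, Egln1 (0.49) and Vegfa (0.36) stayed above 0, which follows from the shared shift and does not test their direction. In limma on log2(FPKM + 1) the median was -0.30 with the filter and -0.07 with none. Vegfa lay below both of these medians, and Egln1 above the first and below the second. On log2(FPKM + 0.1) the median was -0.62, and Egln1 and Vegfa lay above it. The cause of the changes in settings other than library size alone was not tested.

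Of the set of 9, 2 genes were DEGs as higher in every edgeR and DESeq2 fit but that with the length trend removed (3, with Hif1a at 1.01), and 1 in each limma fit (log2(FPKM + 1), the same with no filter, and log2(FPKM + 0.1)), where Adm did not pass. With each library left out, 2 genes were higher in every case and 0 to 1 lower (Ankrd37, without ethanol replicate 2). The further pathway lists, 16 higher and 4 lower, gave 9 and 12 with library size alone, 6 higher in limma on log2(FPKM + 1) with or without a filter, and 7 and 12 on log2(FPKM + 0.1). Leaving out each library gave 13 to 16 higher and 2 to 7 lower, the most without ethanol replicate 3. The cell marker lists, 16 higher and 9 lower, gave 18 lower with library size alone, 9 higher in limma on log2(FPKM + 1), 7 with no filter, and 10 higher and 17 lower on log2(FPKM + 0.1). The shares of all genes moved too. From 10.4% higher and 13.8% lower, they became 5.06% and 32.2% with library size alone. In limma on log2(FPKM + 1) they were 2.55% and 10.7%, with no filter 1.43% and 6.40%, and on log2(FPKM + 0.1) 4.65% and 31.4%. Leaving out each library gave 14 to 16 marker genes higher and 8 to 10 lower. Of all genes, 8.57% to 10.9% were then DEGs as higher and 9.88% to 16.5% as lower.

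The shared replicate numbers showed no sign of pairing the mice. Same-numbered libraries had correlations of -0.03, -0.02 and -0.02 after group means were removed, which cannot exclude a pairing. With the replicate block, 2 genes of the set were DEGs as higher and 0 as lower, and Egln1 did not pass (log2 fold change 0.44, adjusted p = 0.0710, edgeR). Of the further genes named, Ramp1 (adjusted p = 0.0555) and Vegfd (0.0591) did not pass with the replicate block. Rora was then under the DEG threshold, at 0.96 (adjusted p = 0.0327), and Calcrl passed as lower, at -0.85 (adjusted p = 0.0484). Depth limits Hif3a and Ankrd37 most, with 0 to 34 counts per library.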
